A study of Mus musculus with 6 samples.

Results

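A set of 34 cell cycle and DNA replication genes was described in small intestine tumors of mice treated with PEGPH20 or with vehicle. The genes were chosen by name, and all 34 had a row among the 21878 genes of the expression table. They were divided into 11 genes of S phase, 3 cyclins of G1 and 20 genes of G2 and mitosis, called mitotic below. The classes are approximate and do not mark the only phase in which a product acts. The PEGPH20 group held 3 tumors (replicates 4 to 6) from mice given 0.0375 mg/kg of PEGPH20, a pegylated recombinant human hyaluronidase, in 2 doses per week for 3 weeks from 11 weeks of age. The vehicle group held 3 tumors (replicates 1 to 3) on the same schedule. Tumors of both groups were from mice 14 weeks old and carried the genotype Prkcif/fPrkczf/f;Villin-Cre, in which floxed alleles of both atypical protein kinase C genes are recombined. Villin-Cre acts in intestinal epithelium, so stromal and immune cells of these tumors keep both kinases. Whether the 3 tumors of a group were from different mice is not in the labels. The p-values below therefore refer to the spread among these libraries, part of which may be technical.

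Cells enter the cycle when D-type cyclins with CDK4 or CDK6 inactivate the retinoblastoma protein, which frees E2F factors to switch on genes of DNA synthesis. Later in the cycle the MuvB complex, with B-MYB and FOXM1, raises the genes of mitosis from promoters that often carry a CCAAT box and a cell cycle homology region (CHR). In small intestine most dividing cells are transit-amplifying cells of the crypt, and in tumors dividing cells can also be stromal or immune.

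Promoters are shown first, since S-phase and mitotic genes are known to be switched on through different motifs. RefSeq promoter windows on GRCm38.p6, from 250 bases before to 50 bases after each start, were present for 27 of the 34 genes. They were searched on both strands for 3 motifs. The CHR core was the word TTTGAA or else the word TTCGAA, and the CCAAT box was its own letters. The E2F core was any of the word TTCCCGC, the word TTCGCGC, the word TTGCCGC and the word TTGGCGC. None of these words contains another in full, although a match of one motif may overlap a match of another. A CHR core was found in 12 of 16 mitotic genes and in 2 of 10 S-phase genes, against 21.7% of all 27025 genes in the promoter table and 16.5% of the 8693 genes tested for expression with an entry. An E2F core was found in 3 of 16 mitotic genes and in 6 of 10 S-phase genes, against 10.9% of all genes and 19.6% of the genes tested. CCAAT boxes were frequent in both classes, in 14 of 16 mitotic and 8 of 10 S-phase genes, against 41.1% of all genes. A match is a description of these letters and not a site shown to be bound.

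Stretches upstream of the start are given for some of the mitotic genes that hold a CHR core there. They run 5′ to 3′ and end 1 base before the start, with the core in capitals. Ube2c, Bub1b and Ccnb2 also hold a CHR core there and are not printed. Cdk1 is the kinase that drives mitotic entry, Top2a the topoisomerase that untangles replicated chromosomes, Mki67 the gene of the Ki-67 proliferation antigen, and Kif11 the motor that separates spindle poles.
Cdk1, chr10:69352913-69353012, minus strand: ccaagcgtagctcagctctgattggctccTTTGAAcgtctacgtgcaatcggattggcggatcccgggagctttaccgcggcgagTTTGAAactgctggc
Top2a, chr11:99024190-99024339, minus strand: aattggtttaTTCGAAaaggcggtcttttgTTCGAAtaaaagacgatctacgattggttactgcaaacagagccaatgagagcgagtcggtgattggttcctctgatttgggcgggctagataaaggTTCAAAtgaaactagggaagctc
Mki67, chr7:135716380-135716529, minus strand: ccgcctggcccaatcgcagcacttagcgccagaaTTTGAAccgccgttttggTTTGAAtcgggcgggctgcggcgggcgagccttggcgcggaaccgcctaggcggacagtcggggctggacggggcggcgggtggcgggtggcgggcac
Kif11, chr19:37376282-37376381, plus strand: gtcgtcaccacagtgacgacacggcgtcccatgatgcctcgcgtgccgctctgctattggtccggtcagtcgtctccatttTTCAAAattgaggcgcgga

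The same is given for some of the S-phase genes with an E2F core upstream of the start, which is in capitals. Mcm7 and Rrm2 also hold an E2F core there and are not printed. Mcm6 and Mcm5 encode subunits of the replicative helicase, and Rrm1 the large subunit of ribonucleotide reductase, which makes deoxynucleotides.
Mcm6, chr1:128359706-128359855, minus strand: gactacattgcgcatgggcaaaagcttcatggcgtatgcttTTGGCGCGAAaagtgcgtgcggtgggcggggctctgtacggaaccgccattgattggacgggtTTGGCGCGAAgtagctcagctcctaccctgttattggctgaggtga
Mcm5, chr8:75109329-75109508, plus strand: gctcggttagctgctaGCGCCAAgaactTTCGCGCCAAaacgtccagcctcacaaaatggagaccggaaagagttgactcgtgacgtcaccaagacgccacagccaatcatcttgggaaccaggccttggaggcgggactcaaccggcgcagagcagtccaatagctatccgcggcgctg
Rrm1, chr7:102441595-102441694, plus strand: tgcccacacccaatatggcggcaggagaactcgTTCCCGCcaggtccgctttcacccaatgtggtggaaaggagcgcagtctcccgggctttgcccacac

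In Cdk1 the CHR cores began 71 and 15 bases before the start, in Mki67 116 and 98 bases before it, and in Kif11 19 bases before it on the other strand. Mki67 and Cdk1 also held an E2F core, at 67 bases before the start in Mki67. In Mcm6 the E2F cores upstream of the start formed 2 overlapping pairs, the nearer of which began 46 bases before the start.

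**Figure D1:**
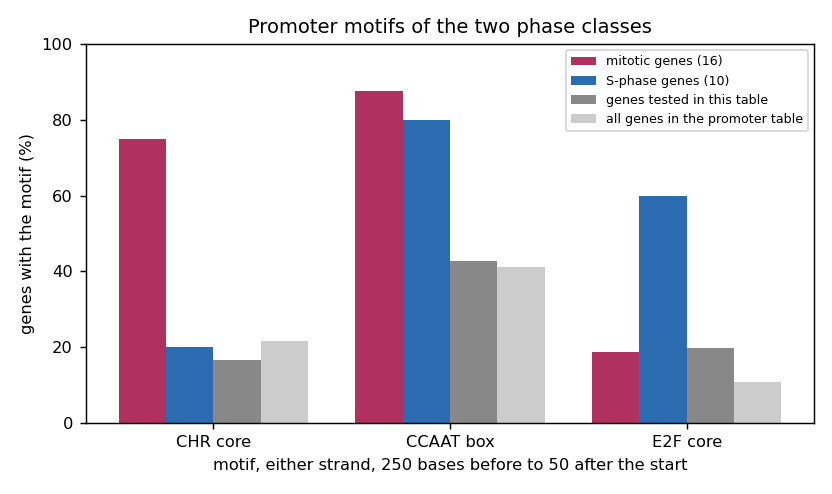
The percentage of genes (vertical axis) whose promoter window holds each motif (horizontal axis), for mitotic genes, S-phase genes, genes tested for expression and all genes of the promoter table. The CHR core stands at 75% of mitotic against 20% of S-phase genes and the E2F core at 18.75% against 60%, while the CCAAT box is frequent in both.

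Libraries held 2075588 to 2832876 reads, and the 34 genes had between 6 and 5266 reads in a library, with 30 or more in every library for 28 of them. Levels are in CPM, reads per 1000000 reads of a library, and a single read was worth 0.353 to 0.482 CPM. PEGPH20 replicate 5 stood apart in log2(CPM + 1) of the genes above a minimum of reads summed over the libraries. Its r to each of the others was 0.836 to 0.901, while r among those 5 ran from 0.945 to 0.979. Results that rest on it are given with and without it. All 10 epithelial markers checked, Epcam and the keratins Krt8 and Krt18 among them, had reads in every library.

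None of the 34 genes passed the test for a difference between PEGPH20 and vehicle tumors. The test was limma on log2(CPM + 1) of 11389 genes, p-values adjusted by Benjamini and Hochberg and a threshold of 0.05. Of all genes tested 0.079% passed it, 0.0263% higher and 0.0527% lower. The smallest adjusted p of the 34 was 0.234, for Mcm3. In bulk tissue such as this, fewer cells of a type and less RNA per cell cannot be told apart. Before adjustment, p was under 0.05 for Mcm3 (lower) and Cenpa (higher), 5.88% of the set, against 18% of all genes tested (6.52% higher and 11.5% lower). The 3 PEGPH20 libraries lay wholly outside the range of the 3 vehicle libraries for 5 genes, 14.7% of the set, against 27.3% of all genes tested. edgeR and DESeq2 on the recovered reads also called 0 of the 34, with 0.0878% of genes passing in edgeR and 277 genes in DESeq2. Without PEGPH20 replicate 5, 2.98% of all genes passed (0.948% higher and 2.03% lower) and still 0 of the 34.

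The intervals put bounds on these genes. The 95% interval of the log2 difference lay within 2-fold in either direction for 29 of the 34 genes (85.3%), against 64.3% of all genes tested. For all 20 mitotic genes it did so, and for 9 of 11 S-phase genes. The exceptions were Mcm2 and Rrm2 of S phase and the 3 G1 cyclins. These intervals are from limma on CPM without further scaling, where the upper bound of Bub1, at 0.994, was just inside 2-fold. The difference of Bub1 was larger under trimmed mean scaling (0.58, SE 0.20) and in DESeq2 (0.63, SE 0.33), for which intervals were not computed. Missing the threshold does not show that levels were equal, and the intervals give the sizes that the 6 libraries leave room for on this scale.

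**Figure D2:**
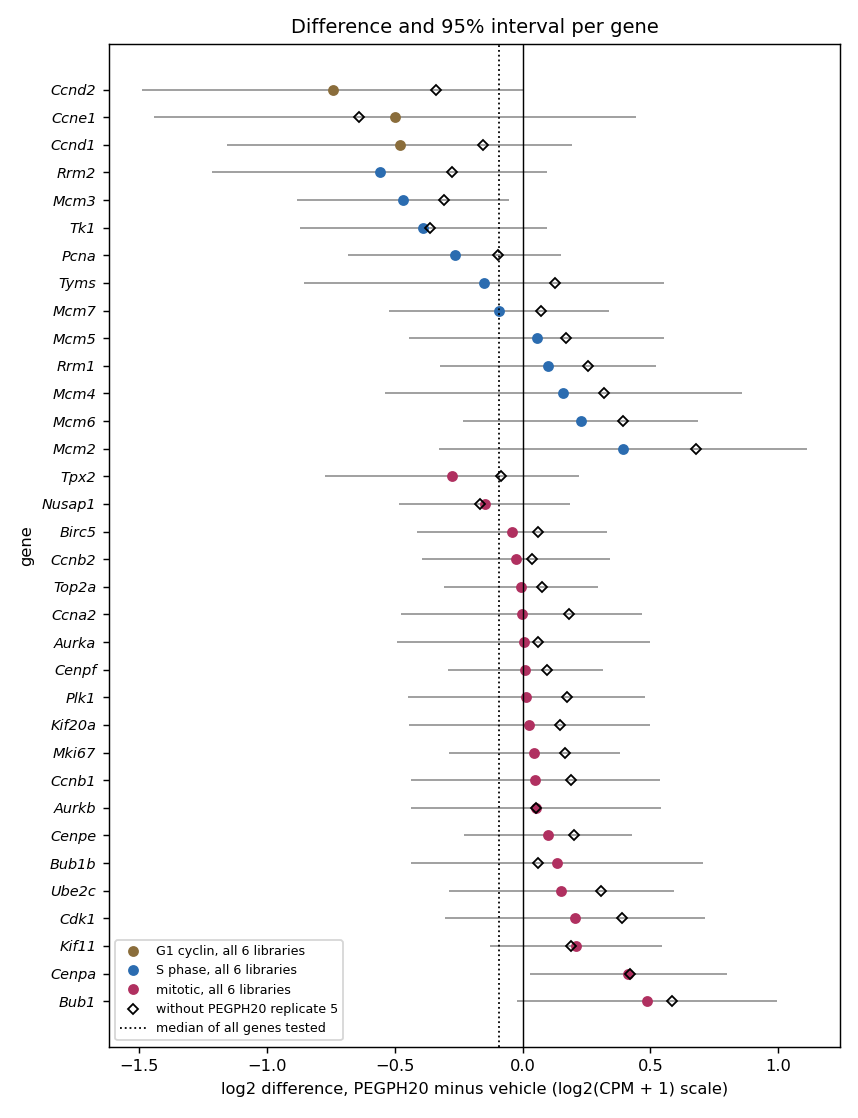
The difference of each gene in log2(CPM + 1), PEGPH20 minus vehicle (horizontal axis), with its 95% interval as a grey line (3 libraries each), beside the difference without PEGPH20 replicate 5 (diamonds) and the median of all genes tested (dotted line). Mitotic genes lie between -0.28 and 0.49, S-phase genes between -0.56 and 0.39 and the G1 cyclins between -0.74 and -0.48.

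Among the replicative helicase genes, which encode the MCM ring loaded at origins before S phase, the subunits of one complex had differences of both signs, none past the threshold. Mcm3 was at 43.8, 31.7 and 45.1 CPM in PEGPH20 replicates 4, 5 and 6 and at 60.2, 51.2 and 54.7 CPM in vehicle replicates 1, 2 and 3. All PEGPH20 libraries were thus below all vehicle libraries (log2 difference -0.47, SE 0.18, limma adjusted p = 0.234). The share of all genes with PEGPH20 wholly below was 17.6%. Mcm2 was at 19.4, 10.4 and 20.03 CPM in PEGPH20 replicates 4, 5 and 6 and at 8.67, 13.8 and 14.1 CPM in vehicle tumors. Replicates 4 and 6 exceeded every vehicle library, and replicate 5 lay among them (log2 difference 0.39, SE 0.31). Mcm6 averaged 32.7 ± 6.72 CPM in PEGPH20 and 27.4 ± 2.76 CPM in vehicle tumors (SD, n = 3 each), and again replicates 4 and 6 exceeded every vehicle library. Mcm4 ranged from 26.7 to 39.2 CPM in PEGPH20 and from 19.3 to 43.6 CPM in vehicle tumors, the widest relative spread among vehicle libraries of any S-phase gene. Mcm5 and Mcm7 had log2 differences of 0.06 and -0.09, with overlapping groups.

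Of the 5 genes of the sliding clamp and of nucleotide supply, all but Tk1 were lowest in PEGPH20 replicate 5. Rrm2, the small and cell cycle regulated subunit of ribonucleotide reductase, was at 30.7, 15.8 and 27.8 CPM in PEGPH20 replicates 4, 5 and 6, against 39.0, 27.5 and 42.0 CPM in vehicle tumors. The groups overlapped through vehicle replicate 2 (log2 difference -0.56, SE 0.28; -0.28 without replicate 5). Rrm1 averaged 44.8 ± 8.82 CPM in PEGPH20 and 41.3 ± 3.14 CPM in vehicle tumors (SD, n = 3 each), so the differences of the 2 subunits had opposite signs, neither past the threshold. Tk1, the thymidine kinase of the salvage route, was at 18.4, 20.4 and 25.5 CPM in PEGPH20 tumors and at 33.2, 22.9 and 29.1 CPM in vehicle tumors (log2 difference -0.39, SE 0.21). It was lowest in replicate 4, not 5, and its difference was -0.36 without replicate 5. Pcna, the clamp that holds polymerases on DNA, averaged 46.7 ± 9.33 CPM in PEGPH20 and 55.7 ± 3.12 CPM in vehicle tumors. Tyms, which makes thymidylate, averaged 23.7 ± 8.66 CPM in PEGPH20 and 25.7 ± 6.64 CPM in vehicle tumors.

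Mitotic genes had a median SE of 0.19, against 0.21 for S-phase genes, and none passed the threshold. The proliferation marker Mki67 was at 192, 156 and 210 CPM in PEGPH20 replicates 4, 5 and 6 and at 187, 179 and 170 CPM in vehicle tumors. The PEGPH20 libraries held both the highest and the lowest value (log2 difference 0.04, 95% interval -0.29 to 0.38). Top2a was at 413, 341 and 398 CPM in PEGPH20 and 417, 360 and 379 CPM in vehicle tumors, with a log2 difference of -0.01 and an interval from -0.31 to 0.30. Cdk1 was at 53.0, 32.1 and 42.8 CPM in PEGPH20 and 30.8, 35.9 and 42.4 CPM in vehicle tumors (log2 difference 0.20, SE 0.22). Its cyclin partners Ccnb1, Ccnb2 and Ccna2 had log2 differences of 0.05, -0.03 and -0.005, all with overlapping groups.

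The mitotic genes with PEGPH20 libraries wholly above vehicle were Bub1, Cenpa and Kif11, while 9.71% of all genes tested were so placed. Cenpa, the histone H3 variant that marks centromeres, was at 27.9, 26.7 and 26.4 CPM in PEGPH20 replicates 4, 5 and 6 and at 19.8, 18.0 and 22.6 CPM in vehicle tumors (log2 difference 0.41, SE 0.17, limma adjusted p = 0.251). Its PEGPH20 libraries had a coefficient of variation of 2.94% on 79, 64 and 58 reads. The chi-square of its reads within groups was 0.38 per degree of freedom, where counting error alone gives a value near 1. This closeness is therefore no measure of how alike the tumors were. The difference of Cenpa was 0.42 without replicate 5. Bub1, a kinase of the spindle checkpoint, was at 22.2, 15.4 and 16.4 CPM in PEGPH20 tumors and at 11.1, 11.9 and 14.5 CPM in vehicle tumors (log2 difference 0.49, SE 0.22, adjusted p = 0.292). It had the largest positive difference of the 34. Kif11 averaged 37.8 ± 2.02 CPM in PEGPH20 and 32.6 ± 2.22 CPM in vehicle tumors (SD, n = 3 each; log2 difference 0.21). The related checkpoint gene Bub1b averaged 11.0 ± 2.45 CPM in PEGPH20 and 9.84 ± 1.595 CPM in vehicle tumors.

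The remaining mitotic genes had overlapping groups. The mitotic kinases Plk1, Aurka and Aurkb had log2 differences of 0.01, 0.003 and 0.05, and Birc5, the survivin subunit of the Aurora B complex, had -0.04. The kinetochore proteins Cenpe and Cenpf had 0.10 and 0.01, and the cytokinesis motor Kif20a 0.03. Ube2c, the ubiquitin-conjugating enzyme of the anaphase-promoting complex, was at 45.2, 36.3 and 56.4 CPM in PEGPH20 and at 41.4, 37.5 and 43.2 CPM in vehicle tumors (log2 difference 0.15). Lower values were seen for the spindle assembly factors Tpx2, at -0.28 (SE 0.21), and Nusap1, at -0.15 (SE 0.14).

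**Figure D3:**
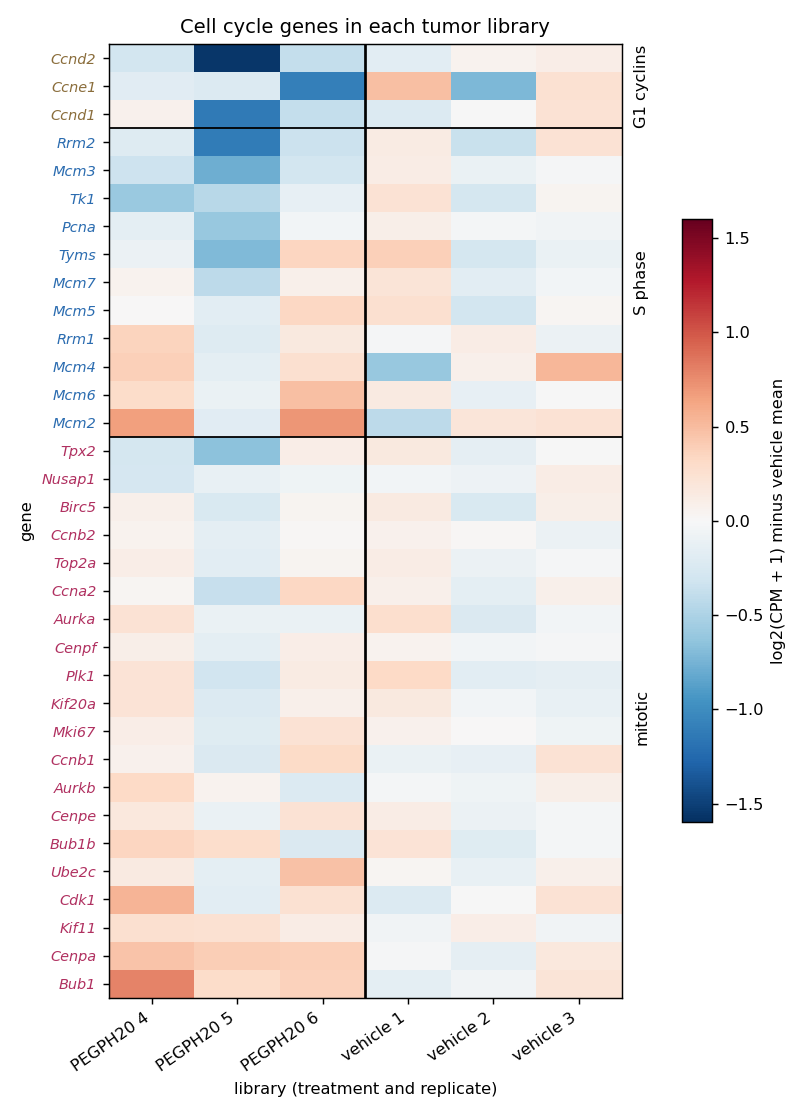
Each of the 34 genes (rows, grouped by class) in each library (columns), as log2(CPM + 1) minus the mean of the 3 vehicle libraries (colour). PEGPH20 replicate 5 is the lowest of the 6 libraries for 20 of the 34 genes and the highest for 0.

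PEGPH20 replicate 5 was the lowest of the 6 libraries for 20 of 34 genes, 12 mitotic, 6 of S phase and 2 of G1, and the highest for 0. The highest values were in PEGPH20 replicate 6 for 9 genes, PEGPH20 replicate 4 for 8, vehicle replicate 1 for 12 and vehicle replicate 3 for 5. Within groups the median coefficient of variation of mitotic genes was 15.3% in PEGPH20 and 9.88% in vehicle tumors, and that of S-phase genes was 19.7% in PEGPH20 and 18.2% in vehicle tumors. Counting error alone gives a chi-square near 1 per degree of freedom. For 11 of 20 mitotic genes the chi-square of the recovered reads within groups was under 2 per degree of freedom, against 2 of 11 S-phase genes.

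S-phase and mitotic genes were then set side by side within each library. The S-phase level, the mean log2(CPM + 1) of its 11 genes, was 5.15, 4.67 and 5.26 in PEGPH20 replicates 4, 5 and 6 and 5.16, 4.999 and 5.18 in vehicle tumors. The mitotic level, over 20 genes, was 5.56, 5.27 and 5.51 in PEGPH20 tumors and 5.44, 5.29 and 5.41 in vehicle tumors. Replicate 5 was the lowest of the 6 in both, by more in S-phase than in mitotic genes. The mitotic level minus the S-phase level was 0.42, 0.61 and 0.25 in PEGPH20 replicates 4, 5 and 6, against 0.28, 0.29 and 0.23 in vehicle tumors. Replicates 4 and 5 exceeded all vehicle libraries and replicate 6 lay among them, so the groups overlapped. The mean was 0.42 ± 0.18 in PEGPH20 and 0.26 ± 0.030 in vehicle tumors (SD, n = 3 each), a difference of 0.16 that was 0.07 without replicate 5. No p-value is given, since the classes were chosen for this comparison.

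By gene, 14 of 20 mitotic genes and 5 of 11 S-phase genes had a positive log2 difference, against 40.2% of all genes tested, of which 59.8% were lower. Medians were 0.04 for mitotic and -0.09 for S-phase genes (0.00090 for S phase under trimmed mean, TMM, scaling), beside -0.09 for all genes tested. That last value was 0.01 under relative log expression (RLE) scaling, a shift of the whole scale, so medians are also given relative to it. Relative to all genes tested, the medians were 0.13 for mitotic, 0.001 for S-phase and -0.41 for G1 genes. Under TMM and RLE scaling 18 mitotic and 6 S-phase genes were positive, while 49.6% and 51.3% of all genes were. Without PEGPH20 replicate 5 the counts were 18 and 7, with 48.1% of all genes positive, and the medians were 0.16 and 0.13. The mitotic count depended on single libraries. It was 10 of 20 without vehicle replicate 2, with 40.6% of all genes positive. It was 9 of 20 without PEGPH20 replicate 4 and also without PEGPH20 replicate 6, with 36.7% and 39.8% of all genes positive. In these settings, in that order, mitotic medians were -0.002, -0.03 and -0.02, beside -0.10, -0.15 and -0.11 for all genes tested.

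The levels were also set against 10 epithelial markers, 4 higher and 6 lower in PEGPH20 tumors. These markers are no measure of all epithelium, since in replicate 5, where their sum was lowest at 5108 CPM, enterocyte markers were highest at 18509 CPM. The mitotic level minus the mean log2(CPM + 1) of these markers was -3.15, -2.76 and -3.04 in PEGPH20 replicates 4, 5 and 6 and -3.03, -3.36 and -3.36 in vehicle tumors. The S-phase level minus the same was -3.56, -3.37 and -3.29 in PEGPH20 tumors and -3.31, -3.65 and -3.59 in vehicle tumors. The subtracted mean was itself lowest in replicate 5, at 8.04, so subtracting it raises that library relative to the others. On this scale replicate 5 was the highest library in the mitotic class and lay among the vehicle libraries in S phase. The groups overlapped in both classes.

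**Figure D4:**
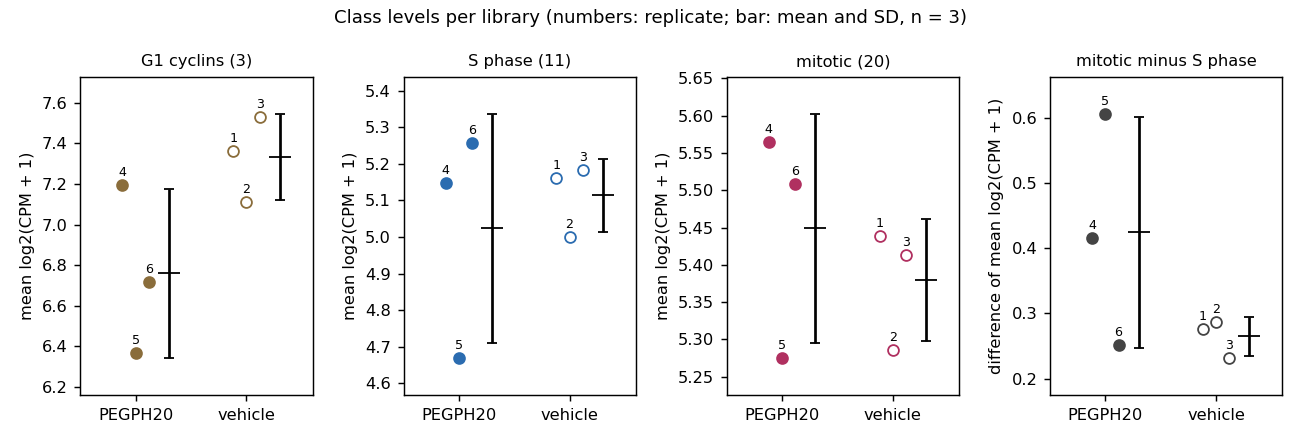
Mean log2(CPM + 1) of the genes of each class in each library (points, numbered by replicate), PEGPH20 left and vehicle right, with the mean and SD of 3 libraries as a bar; the last panel is the mitotic level minus the S-phase level. Vertical axes do not start at 0. PEGPH20 replicate 5 is lowest in the first 3 panels at 6.37, 4.67 and 5.27 and highest in the last at 0.61.

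The 3 G1 cyclins of the set were the class farthest below the median of all genes. Ccnd3 (cyclin D3) and Ccne2 (cyclin E2), G1 cyclins outside the set, were named after their values were seen. Their log2 differences were -0.18 and 0.38, both with overlapping groups, and 0.01 and 0.45 without replicate 5. Ccnd2, cyclin D2, was at 1519, 635 and 1426 CPM in PEGPH20 replicates 4, 5 and 6 and at 1654, 1940 and 2013 CPM in vehicle tumors. All PEGPH20 libraries were below all vehicle libraries, replicate 5 by the most (log2 difference -0.74, SE 0.32, limma adjusted p = 0.278). Without replicate 5 the difference was -0.34 (adjusted p = 0.152). Ccnd1, cyclin D1 and a Wnt target in intestine, was at 296, 128 and 217 CPM in PEGPH20 and 241, 280 and 332 CPM in vehicle tumors, with a log2 difference of -0.48 that was -0.15 without replicate 5. Ccne1, cyclin E1, the partner of CDK2 at S-phase entry, had only 6 to 22 reads per library, and its log2 difference of -0.50 had an interval from -1.44 to 0.44.

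Marker levels of other cell types are set beside these values. PEGPH20 replicate 5 had a summed level of 5108 CPM over 10 epithelial markers, against 7479 to 7730 CPM in the other PEGPH20 tumors and 7445 to 8833 CPM in vehicle tumors. It had 18509 CPM over 10 enterocyte markers, 9 of which had a positive log2 difference, against 5981 and 6433 CPM in the other PEGPH20 tumors and 3873 to 8322 CPM in vehicle tumors. Over 10 fibroblast markers, 9 of which had a negative log2 difference, PEGPH20 tumors ranged from 658 to 1683 CPM and vehicle tumors from 3085 to 3179 CPM. The 8 endothelial markers, with 6 of 6 tested lower, ranged from 101 to 166 CPM in PEGPH20 and from 271 to 287 CPM in vehicle tumors. Their part in the differences of the cell cycle genes was not tested.

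Lymphocytes can also divide in this tissue. The 8 T cell markers, with 2 of 2 tested higher, summed to 29.3 to 57.1 CPM in PEGPH20, the highest in replicate 5, and to 17.6 to 27.5 CPM in vehicle tumors. The B cell marker Ms4a1 had at most 2 reads in any library and was at 0 in vehicle replicate 2. The 5 B and plasma cell markers measured, with 3 of 3 tested higher, summed to 2779 to 3572 CPM in PEGPH20 and 1782 to 2106 CPM in vehicle tumors, most of it from Jchain. The 7 macrophage markers, 2 higher and 5 lower, summed to 113 to 156 CPM in PEGPH20 and 156 to 176 CPM in vehicle tumors. The 6 smooth muscle markers, all lower, summed to 361 to 545 CPM in PEGPH20 and 501 to 625 CPM in vehicle tumors. The 3 germinal centre markers measured summed to 29.6 to 38.2 CPM in PEGPH20 and 27.1 to 30.4 CPM in vehicle tumors. The 8 crypt stem cell markers, 3 higher and 5 lower, summed to 424 to 607 CPM in PEGPH20 and 498 to 545 CPM in vehicle tumors. The part of these cells in the levels above was likewise not tested.

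In 7 wider lists of cell cycle genes, again 0 genes passed over all genes tested, in either direction. Of the list of G1 kinases and partners, which also holds Ccnd3, Ccne2 and Myc, 4 of 9 were higher and 5 lower (median -0.13). Cdk6, a kinase that binds D cyclins, was at 151, 79.2 and 118 CPM in PEGPH20 replicates 4, 5 and 6 and at 167, 189 and 245 CPM in vehicle tumors, all below (log2 difference -0.81, SE 0.25, limma adjusted p = 0.183; -0.56 without replicate 5). Skp2, which targets CDK inhibitors for breakdown, was at 11.6, 10.4 and 10.9 CPM in PEGPH20 and 7.71, 6.88 and 7.65 CPM in vehicle tumors, all above. Of 17 tested genes of the RB, E2F and DREAM list, 11 were higher and 6 lower (median 0.10). The smallest p-values there were for E2f5, with a log2 difference of -0.44, and Rb1, the retinoblastoma gene, with 0.39.

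Of the 8 CDK inhibitors, which hold back the kinases above, 3 were higher and 5 lower (median -0.10). Cdkn1a, p21, was at 357, 390 and 329 CPM in PEGPH20 replicates 4, 5 and 6 and at 486, 518 and 517 CPM in vehicle tumors. All PEGPH20 libraries were below all vehicle libraries, and replicate 5 was the closest to vehicle (log2 difference -0.50, SE 0.12, limma adjusted p = 0.147). Without replicate 5 Cdkn1a was lower in PEGPH20 tumors and passed over all genes tested (-0.56, limma adjusted p = 0.0165). It was the only gene of the 7 lists to do so. In that setting 2.98% of all genes tested passed, made up of 0.948% of all genes tested as higher and 2.03% as lower. Cdkn1c, p57, was at 2.82, 4.17 and 1.82 CPM in PEGPH20 and 7.71, 5.73 and 6.88 CPM in vehicle tumors (log2 difference -1.02, adjusted p = 0.178). Cdkn2a, the locus of p16 and p19Arf, was named after its values were seen. It had 0 reads in PEGPH20 replicate 5, which allows up to 3 reads or 1.25 CPM, and was at 20.1 and 10.5 CPM in replicates 4 and 6 and at 14.5, 27.1 and 26.4 CPM in vehicle tumors.

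**Figure D5:**
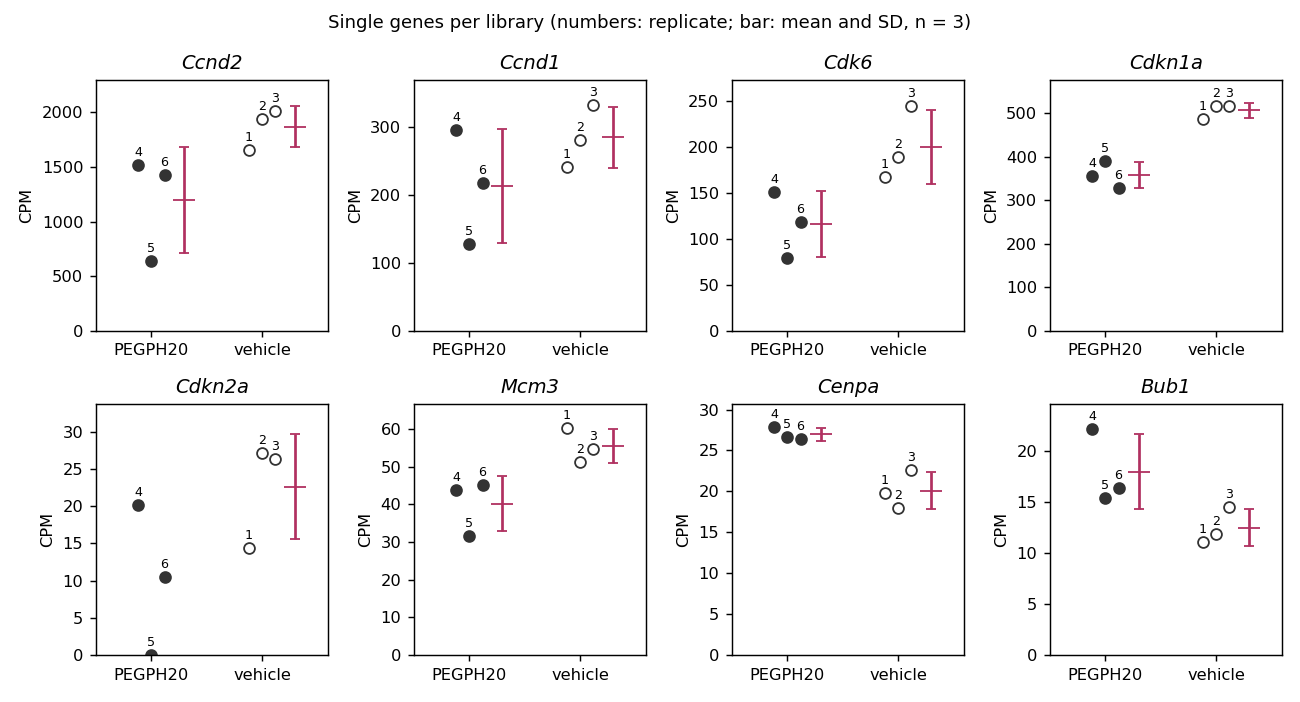
CPM (vertical axes, from 0) of 8 genes in each library, PEGPH20 left and vehicle right, numbered by replicate, with the mean and SD of 3 libraries as a bar, which is left out for Cdkn2a in PEGPH20 tumors. Groups do not overlap for Ccnd2, Cdk6, Cdkn1a, Mcm3, Cenpa and Bub1. The 8 genes are a selection, and groups do not overlap for 14.7% of the 34 genes and 27.3% of all genes tested. PEGPH20 replicate 5 is lowest for Ccnd2, Ccnd1, Cdk6, Cdkn2a, Mcm3 and, among PEGPH20 libraries, for Bub1.

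Among genes that license and fire origins, 4 of 20 were higher and 16 lower (median -0.12, or -0.02 relative to all genes, and 0.0031 in edgeR). Orc6, a subunit of the origin recognition complex, had a log2 difference of -0.56 and Ticrr, needed to activate the helicase, -0.55, both with PEGPH20 wholly below vehicle. Of 32 genes of the fork and of nucleotide supply, 16 were higher and 16 lower (median -0.01, and 0.08 in edgeR). Lig1, which joins Okazaki fragments, was at 105, 78.8 and 94.7 CPM in PEGPH20 and 127, 114 and 124 CPM in vehicle tumors. Uhrf1, which keeps DNA methylation through replication, was at 16.9, 14.6 and 15.02 CPM in PEGPH20 and 8.19, 12.2 and 10.3 CPM in vehicle tumors. The groups did not overlap for either gene, with log2 differences of -0.40 for Lig1 and 0.57 for Uhrf1.

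Of 32 tested genes of spindle and kinetochore, 12 were higher and 20 lower (median -0.03, and 0.07 in edgeR). Without PEGPH20 replicate 5 the counts were 22 higher and 10 lower. Incenp, the scaffold of the Aurora B complex, was at 34.2, 30.01 and 36.9 CPM in PEGPH20 and 48.7, 49.3 and 43.6 CPM in vehicle tumors (log2 difference -0.48, SE 0.15, limma adjusted p = 0.185). Sgo1, which protects centromere cohesion, had -0.55. Hmmr, a spindle protein that also binds hyaluronan and was named after its values were seen, was at 42.4, 33.8 and 49.6 CPM in PEGPH20 and 37.6, 35.2 and 30.2 CPM in vehicle tumors (log2 difference 0.27, SE 0.19). Of 22 tested genes of mitotic entry, exit and cytokinesis, 10 were higher and 12 lower (median -0.02, and 0.06 in edgeR), with the smallest p-values for H2az1 at -0.40 and Ncapd2 at -0.45.

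On GRCm38 with GENCODE M21, Ccnd2 (ENSMUSG00000000184) spans chromosome 6 from 127125162 to 127152193, Mcm3 (ENSMUSG00000041859) chromosome 1 from 20802968 to 20820312 and Cenpa (ENSMUSG00000029177) chromosome 5 from 30666777 to 30674830. The kit reads tags at the 3′ end of transcripts. A gene annotated on the other strand overlapped the last 500 bases of 7 of the 34 genes, Ccnd1 and Ccnd2 among them, and a gene on the same strand of 0. Pcna, Tyms, Ccnb1 and Ccnb2 have annotated pseudogenes of that name. Counts of these genes are uncertain to the extent that strand or near-identical copies were not resolved, since the counting is not given in the sources used here.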

How the data were processed

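RNA of 6 tumors was made into 3′ tag libraries and sequenced single-end, per the labels' protocols. The authors deposited a table of signal per gene, in CPM, counts per 1000000 reads of the library. Its last row, total reads, names no gene and was left out of library sizes and tests. Per the submitters' processing notes the genome build is GRCm38. Which aligner and counter were used, and whether molecular identifiers were collapsed, is not given in the sources used here.

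Every deposited value was a whole multiple of 1 read's worth within a tolerance of 1e-06, so 100% of values gave whole reads. 0 sample columns were unused. Levels were compared as log2(CPM + 1) with limma 3.58.1 in R 4.3.3, with a mean-variance trend, over 11389 genes kept by edgeR's filterByExpr at a minimum count of 10 on the recovered reads. A fold change on this scale understates the change of low genes. edgeR 4.0.16, which called 10 genes, DESeq2 1.42.0 and array weights were alternatives. Scripts were tested on simulated data.

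The members and lists were chosen with earlier results of these data known. Of each pathway list, genes that passed over all genes tested were named, and otherwise the 2 with the smallest p. Genes said above to be named after their values were seen are exceptions to this. A floor of 3 reads, 1.06 to 1.45 CPM, and all counts cover counting error only. Gene positions and pseudogenes are from GENCODE M21, promoters from RefSeq on GRCm38.p6. A marker of the B and plasma cell list is not reported here.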

Additional observations from a re-analysis of the deposited data

How the results depend on the processing

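Under every alternative run, 0 of the 34 genes passed, with the lowest adjusted p of any of them at 0.0969 (limma with array weights). The number of all genes that passed was 9, against 29 with no filter on low values, where 21878 genes were tested, 277 with DESeq2, 871 with array weights and 1 to 339 with 1 library left out, the highest without PEGPH20 replicate 5. The cause of the DESeq2 and array weight counts was not tested. With array weights the S-phase median was 0.16, against -0.09, and the mitotic median was 0.13, against 0.04. The order of these medians was thus reversed under array weights. The mitotic minus S-phase difference in level kept its sign where it was computed, at 0.07 to 0.25 with 1 library left out. It was not computed for the filters, array weights, edgeR or DESeq2. The log2 differences of Top2a, Ccnb2, Ccna2 and Birc5, all near 0, changed sign under TMM scaling (0.088, 0.065, 0.088 and 0.053), RLE (0.10, 0.080, 0.10 and 0.069), upper quartile (0.087, 0.064, 0.087 and 0.051), edgeR (0.080, 0.062, 0.099 and 0.040), DESeq2 (0.095, 0.076, 0.11 and 0.055) and array weights (0.084, 0.022, 0.26 and 0.11). Mcm7 changed sign at 0.00090 under TMM, 0.016 under RLE, 0.0093 under DESeq2 and 0.11 with array weights, under which Tyms was 0.28, Aurkb -0.051 and Tpx2 0.013. With 1 library left out, these differences took both signs: Mcm4 -0.15 to 0.42, Mcm5 -0.091 to 0.18, Mcm7 -0.18 to 0.070, Rrm1 -0.029 to 0.25, Tyms -0.40 to 0.13, Mki67 -0.047 to 0.17, Top2a -0.061 to 0.076, Ccnb1 -0.078 to 0.19, Ccnb2 -0.070 to 0.037, Ccna2 -0.17 to 0.18, Aurka -0.11 to 0.14, Aurkb -0.081 to 0.19, Birc5 -0.16 to 0.060, Cenpf -0.035 to 0.095, Kif20a -0.067 to 0.15, Plk1 -0.089 to 0.17 and Ube2c -0.0051 to 0.31. The other 16 genes kept their sign under all alternatives run. No paired analysis was possible because the groups share no replicate numbers. Ccne1, with 6 to 22 reads in a library, is the gene most limited by depth.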
